A study of Homo sapiens with 2 samples.

Results

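The genes described here are 63 genes of Wnt signalling, of 19775 genes with a value on the array. They were chosen by symbol, with earlier results of these data known. The rule takes genes named WNT, FZD, DKK, SFRP or RSPO with a number. It adds a fixed set of co-receptors, antagonists, cytoplasmic components, feedback inhibitors and TCF/LEF transcription factors. 137 probe sets measured the 63 genes, 28 genes by 1 probe set and 35 by several, up to 7. Only probe sets that list a single symbol were used, and symbols without one, such as TCF7, are not analysed here. The study set 2 cultures of Huh7 against each other, a human cell line from a hepatocellular carcinoma, grown in DMEM with serum. The first expressed, after lentiviral transduction, a short hairpin RNA (shRNA) that targets CD24, a small surface glycoprotein, as a stable knockdown. The second received a non-target hairpin by the same route and is called the control. Total RNA of each went onto 1 Affymetrix array, so each group holds 1 sample, and whether a culture was a clone or a pool is not given in the sources used here.

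Wnt proteins are secreted lipid-modified ligands that bind frizzled receptors and the co-receptors LRP5 and LRP6. Without a ligand, a complex of AXIN1, APC and the kinase GSK3B marks beta-catenin for degradation. With a ligand, dishevelled proteins recruit that complex to the membrane, beta-catenin enters the nucleus and TCF/LEF factors switch on target genes, several of which encode brakes on the same pathway. In the liver the pathway patterns the lobule around the central vein, and it is often active in liver cancer. Other Wnt ligands, WNT5A and WNT11 among them, are best known for beta-catenin-independent signalling in cell movement.

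The deposited values were taken as log2 values from which the mean of the 2 arrays was taken away, probe set by probe set. Levels are therefore not in the table, and every difference below is on the log2 scale, CD24 shRNA minus control. Probe sets were averaged for each gene, and their SD is the error given. No difference has a replicate check and no p-value was computed. The SD between probe sets of the same gene, pooled over 10523 genes, was 0.27, and over the 35 members with several probe sets it was 0.22. CD24 itself was lower with CD24 shRNA on all 6 of its probe sets, at -1.37 ± 0.38 (SD, 6 probe sets). RNA came from whole cultures, so fewer cells expressing a gene and less RNA per cell cannot be told apart.

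Among the 63 members, WNT11, FZD5 and SP5 were at least 1.5-fold higher with CD24 shRNA, and ZNRF3 and TCF7L1 were at least 1.5-fold lower. Of all genes, 2.63% lay that much higher and 2.38% that much lower, so 7.94% of members passed this fold in either direction, against 5.01% of all genes. At 2-fold there were 2 members higher (WNT11 and FZD5) and 1 lower (ZNRF3), 4.76% of members against 1.12% of all genes, of which 0.632% were higher and 0.485% lower. These shares rest on 5 and 3 genes. The members as a whole did not lie to a side: 31 lay above 0, 31 below and WNT2 at 0, with a median of 0, as over all genes. The difference of 46 members, or 73.0%, lay within the pooled SD, against 76.0% of all genes. Scaling the arrays to their hybridisation controls raises each difference by 0.11, so values between -0.11 and 0 turn positive, probe sets included. Then 47 members lay above 0 and 16 below, beside 14112 and 5663 of all 19775 genes. LRP4 passed 1.5-fold on the higher side at 0.69, and SP5 passed 2-fold at 1.01. The counts above and below 0 by role under this scaling, given further on, stand beside that same shift of all genes.

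Promoter sequence is shown for the members past 1.5-fold that the promoter table holds, because SP5 is a textbook direct target of TCF/LEF factors while FZD5 and TCF7L1 encode a receptor and one of those factors. Each line gives the 250 bases before the annotated start, 5′ to 3′ on the gene's strand, from RefSeq on GRCh38.p14. Capitals mark matches to the TCF/LEF core motif, searched as CTTTGAA and CTTTGAT on both strands.
SP5, chr2:170715087-170715336, plus strand: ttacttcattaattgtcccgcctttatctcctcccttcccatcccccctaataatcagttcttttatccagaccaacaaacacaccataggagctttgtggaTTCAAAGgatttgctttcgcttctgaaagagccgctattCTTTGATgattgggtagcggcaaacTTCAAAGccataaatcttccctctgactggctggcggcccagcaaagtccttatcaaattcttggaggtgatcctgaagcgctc
FZD5, chr2:207769907-207770156, minus strand: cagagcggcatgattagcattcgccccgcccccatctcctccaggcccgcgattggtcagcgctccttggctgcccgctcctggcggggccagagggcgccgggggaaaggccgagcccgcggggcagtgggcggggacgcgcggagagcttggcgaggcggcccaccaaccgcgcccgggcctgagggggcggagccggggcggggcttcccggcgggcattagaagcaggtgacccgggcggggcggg
TCF7L1, chr2:85133142-85133391, plus strand: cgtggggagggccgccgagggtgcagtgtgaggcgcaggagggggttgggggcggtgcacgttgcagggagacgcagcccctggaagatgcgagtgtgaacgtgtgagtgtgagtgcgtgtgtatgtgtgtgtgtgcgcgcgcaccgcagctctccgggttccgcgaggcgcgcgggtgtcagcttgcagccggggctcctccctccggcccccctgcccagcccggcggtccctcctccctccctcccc
The SP5 window held 3 matches, whose first letters lie 148, 109 and 84 bases before the start, and none of them overlap. Of 27305 promoters in the table, 6.03% held at least 1 match in the same window and 7, or 0.0256%, held at least 3. No match lay in the FZD5 and TCF7L1 windows. A promoter was found for 43 of the 63 members by symbol, and 2 of these 43 (4.65%) held a match, SP5 and DKK1. None was found for WNT11 and ZNRF3, nor for the feedback genes AXIN2, NKD1, NOTUM and TBX3, so these were not searched. A match is a description of the letters and not evidence of binding.

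**Figure D1:**
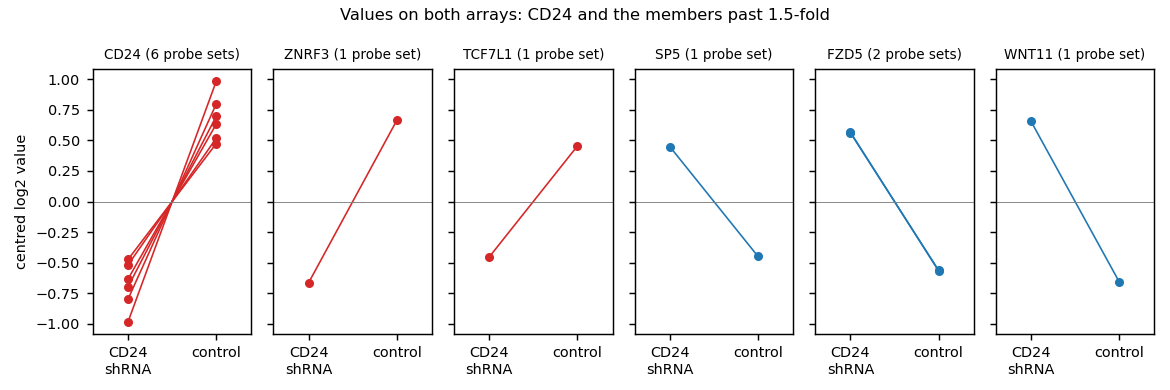
Centred log2 value (vertical axis) on the CD24 shRNA array (left) and the control array (right) for CD24 and the 5 members past 1.5-fold, with 1 line per probe set. The CD24 shRNA value is the lower for CD24, ZNRF3 and TCF7L1 and the higher for SP5, FZD5 and WNT11, and the 2 FZD5 probe sets lie almost on each other.

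The Wnt ligands were measured by 32 probe sets of 17 genes, of which 7 genes lay above 0 and 9 below, with WNT2 at 0. WNT11 had a centred value of 0.66 on the CD24 shRNA array and -0.66 on the control array, a log2 difference of 1.31 or 2.48-fold on its only probe set. It ranked 57th from the highest of 19775 genes. The low end of the ligands was WNT10B, at -0.18 on the CD24 shRNA array and 0.18 on the control array, a log2 difference of -0.36. Between them, WNT7A lay next to WNT11 at 0.43 on 1 probe set, below 1.5-fold. WNT5A and WNT5B, close relatives that signal mainly without beta-catenin, were measured by probe sets that disagreed. The WNT5A probe sets had log2 differences of 0.42 and -0.23, and those of WNT5B had 0.66, 0.17 and -0.14. Their gene means, 0.10 ± 0.46 (SD, 2 probe sets) and 0.23 ± 0.40 (SD, 3 probe sets), were smaller than their own spread. WNT6, a ligand on 4 probe sets, lay below 0 on all of them, at -0.11 ± 0.08 (SD). 14 of the 17 ligands (82.4%) lay within the pooled SD between probe sets of 0, against 76.0% of all genes. Under the scaling to hybridisation controls, 11 ligands lay above 0 and 6 below.

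The frizzled receptors are membrane proteins whose cysteine-rich extracellular domain holds the Wnt ligand. FZD5 was 2.19-fold higher, and it was the only member past 1.5-fold with more than 1 probe set. Its centred values were 0.57 and 0.56 on the CD24 shRNA array and -0.57 and -0.56 on the control array, log2 differences of 1.13 and 1.12 with a gene mean of 1.13 ± 0.01 (SD, 2 probe sets). It ranked 91st from the highest. The other frizzled genes with a single-symbol probe set lay well below it. Probe sets that list a Wnt ligand or frizzled symbol with a second symbol are given further on. FZD10, on 1 probe set, had a log2 difference of 0.29. FZD3 had 0.28 ± 0.25 (SD, 4 probe sets, all above 0, the highest at 0.61), and FZD4 had 0.27 ± 0.05 (SD, 2 probe sets). At the other end, FZD9 had a centred value of -0.15 on the CD24 shRNA array and 0.15 on the control array, a log2 difference of -0.30 on 1 probe set. FZD7 lay at -0.24 ± 0.11 (SD, 2 probe sets), both below 0. Of the 6 frizzled genes with several probe sets, 5 (83.3%) had all of them on the same side of 0. That share was 39.9% over all genes with several probe sets and 42.9% over the 35 such members. The frizzled share was the highest of all roles, and a group of 6 genes says little. With the hybridisation controls at 0, 7 of 9 frizzled genes lay above 0 in place of 6.

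Of the co-receptors and the receptor tyrosine kinases ROR1 and ROR2, none passed 1.5-fold as deposited, and LRP4 passed it with the hybridisation controls at 0. LRP4, an LDL-receptor relative that binds the Wnt inhibitor sclerostin, lay just short of that limit. It had 0.29 on the CD24 shRNA array and -0.29 on the control array, a log2 difference of 0.58 or 1.49-fold on 1 probe set. LRP6, the main Wnt co-receptor, lay at -0.10 ± 0.14 (SD, 3 probe sets), all below 0. LRP5, its relative, was the lowest of the group, with a centred mean of -0.09 on the CD24 shRNA array and 0.09 on the control array. Its gene mean was -0.17 ± 0.40 (SD), with 1 probe set at -0.46 and the other at 0.11. ROR1 had probe sets at 0.24, 0 and -0.25, and ROR2 lay at 0.11 on 1 probe set. Under the same scaling, 4 of these 5 genes lay above 0, LRP6 among them. Neither ROR gene differed by more than the pooled SD.

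The secreted antagonists differed little. DKK proteins block LRP5 and LRP6, SFRP proteins, FRZB and WIF1 bind Wnt ligands, and R-spondins work the other way by removing ZNRF3 and RNF43 from the cell surface. All 14 genes stayed below 1.5-fold, 7 above and 7 below 0. Of all genes 5.01% passed that fold, so a group of 14 without such a gene says little. Within the pooled SD lay 12 of them (85.7%), against 76.0% of all genes. RSPO2 was the highest, at 0.03 and 0.17 on the CD24 shRNA array and -0.03 and -0.17 on the control array, a gene mean of 0.20 ± 0.20 (SD, 2 probe sets). RSPO3 was the lowest, at -0.17 on the CD24 shRNA array and 0.17 on the control array, a log2 difference of -0.34 on 1 probe set, with DKK4 next at -0.31. DKK1, the best known of the antagonists, had a log2 difference of 0.11 on 1 probe set. DKK3, a divergent family member, lay at 0.10 ± 0.13 (SD, 6 probe sets). Probe sets of SFRP1, SFRP4, DKK2 and FRZB lay on both sides of 0, with gene means between -0.09 and 0.14. Scaled to the hybridisation controls, 10 of the 14 genes lay above 0.

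**Figure D2:**
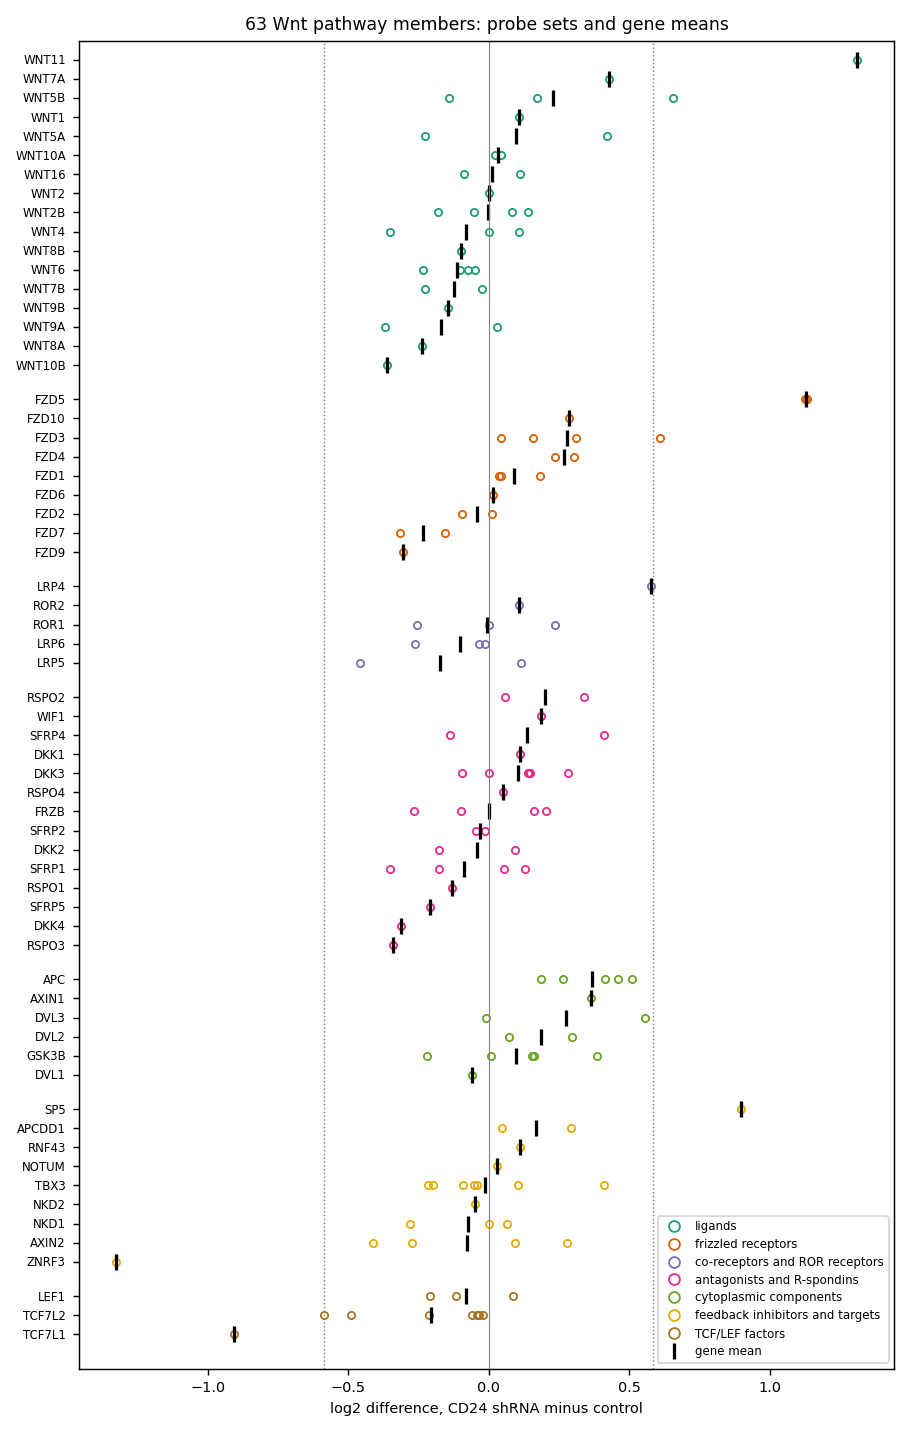
Log2 difference, CD24 shRNA minus control (horizontal axis), of the 63 members, grouped by role and sorted within each role. Circles are probe sets, black ticks are gene means and dotted lines mark 1.5-fold; WNT11, FZD5 and SP5 lie right of the lines, ZNRF3 and TCF7L1 left of them, and most other members near 0.

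The cytoplasmic components lay mostly above 0, with none past 1.5-fold. APC, the scaffold of the beta-catenin destruction complex, was above 0 on all 5 probe sets, with log2 differences of 0.18, 0.26, 0.42, 0.46 and 0.51 and a gene mean of 0.37 ± 0.14 (SD), 1.29-fold. The centred APC mean was 0.18 on the CD24 shRNA array and -0.18 on the control array. AXIN1, the limiting scaffold of the same complex, lay at 0.36 on 1 probe set. GSK3B, the kinase of the complex, lay at 0.10 ± 0.22 (SD, 5 probe sets), 4 above 0 and 1 below. Of the dishevelled genes, DVL3 had 0.56 and -0.01 on its probe sets, DVL2 had 0.30 and 0.07, and DVL1, the lowest of the group, had -0.06 on 1 probe set. The centred DVL1 value was -0.03 on the CD24 shRNA array and 0.03 on the control array. The median of these 6 genes was 0.23, and 5 lay above 0. With the hybridisation controls at 0 the median was 0.34, DVL1 turned positive at 0.05, and all 6 lay above 0.

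The feedback inhibitors and targets held the widest range. ZNRF3, a membrane ubiquitin ligase that clears frizzled receptors from the surface and is itself induced by Wnt signalling, was the lowest member of all. It had a centred value of -0.66 on the CD24 shRNA array and 0.66 on the control array, a log2 difference of -1.33 or 2.51-fold lower on 1 probe set. It ranked 36th from the lowest of 19775 genes. RNF43, the close homologue with the same function, had a log2 difference of 0.11 on its only probe set, within the pooled SD. SP5, a zinc finger transcription factor and the gene with the TCF/LEF matches printed above, went the other way from ZNRF3. It had 0.45 on the CD24 shRNA array and -0.45 on the control array, a log2 difference of 0.90 or 1.86-fold higher on 1 probe set, which ranked 179th from the highest.

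The other feedback genes lay near 0. AXIN2, the most widely used readout of beta-catenin signalling, had probe sets at -0.41, -0.27, 0.09 and 0.28 and a gene mean of -0.08 ± 0.32 (SD). NKD1 and NKD2, inhibitors that bind dishevelled, lay at -0.07 ± 0.18 (SD, 3 probe sets) and -0.05 (1 probe set). NOTUM, a secreted enzyme that removes the lipid from Wnt proteins, lay at 0.03, and APCDD1, a membrane inhibitor, at 0.17 ± 0.17 (SD, 2 probe sets). TBX3, a transcription factor linked to beta-catenin in liver, was at -0.01 ± 0.21 (SD, 7 probe sets), 2 above and 5 below 0. ZNRF3 and SP5 thus lay on opposite sides while 7 of the 9 feedback genes (77.8%) lay within the pooled SD, against 76.0% of all genes. Scaled to the hybridisation controls, ZNRF3 alone of these 9 lay below 0.

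All 3 TCF/LEF genes lay below 0, beside 9402 of all 19775 genes, and a group of 3 genes says little. TCF7L1, a member that acts largely as a repressor of target genes, had -0.45 on the CD24 shRNA array and 0.45 on the control array, a log2 difference of -0.91 or 1.88-fold lower on 1 probe set, and ranked 128th from the lowest. TCF7L2, a TCF factor of liver and gut, lay below 0 on all 7 probe sets, from -0.58 to -0.02, with a gene mean of -0.21 ± 0.24 (SD). LEF1 had probe sets at -0.21, -0.12 and 0.09 and a mean of -0.08 ± 0.15 (SD), with a centred mean of -0.04 on the CD24 shRNA array and 0.04 on the control array. With the hybridisation controls at 0, LEF1 turned positive at 0.03, TCF7L1 lay at -0.80, and some probe sets of TCF7L2 lay above 0. The name of the TCF7L1 probe set ends in _s_at, a type that can match more than 1 transcript.

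**Figure D3:**
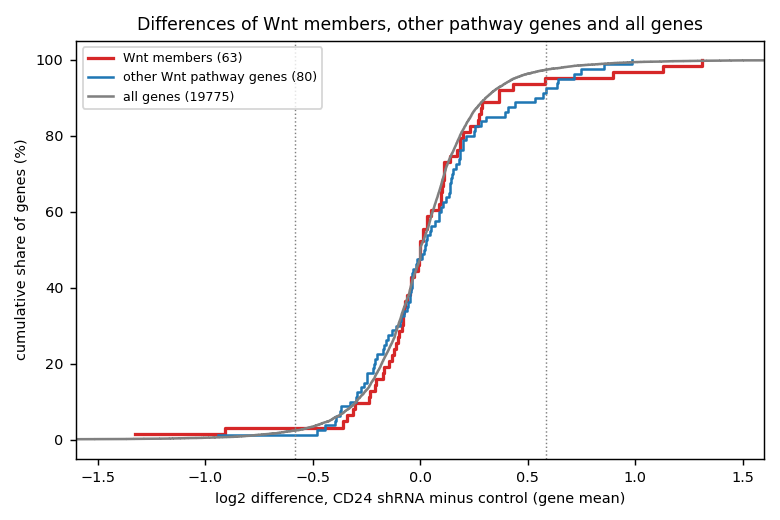
Cumulative share of genes (vertical axis, percent) against the log2 difference of the gene mean, CD24 shRNA minus control, for the 63 members, 80 other Wnt pathway genes and all 19775 genes; dotted lines mark 1.5-fold. The members' curve runs close to that of all genes between the lines and steps out at the 5 named genes.

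The digits of the table gave a coarse view of brightness. The values are single-precision numbers, whose binary step becomes finer below 8 on the log2 scale and finer again below 4, so some probe sets can be placed below 4 or below 8 on the dimmer array. Not every dim probe set is found this way. Of 105 probe sets of cytosolic ribosomal proteins, 6.67% were placed below 4, against 55.9% of 127 probe sets of olfactory and taste receptors. Of the members' probe sets 24.8% were placed there, close to the 25.4% over all genes. By role it was 8 of 32 probe sets for ligands, 27.8% of them for frizzled receptors and 37.9% for antagonists and R-spondins, against 12.5% for cytoplasmic components. WNT11 was placed below 4, so its value on the control array lay in that dim range. Both RSPO2 probe sets and the single ones of RSPO3, DKK4, FZD9 and FZD10 were placed there too. The single probe sets of ZNRF3 and SP5 were placed below 8. Both FZD5 probe sets and that of TCF7L1 were not placed below either level.

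Sizes of difference also recurred between probe sets. The same size, to every deposited digit, was found on 5 or more other probe sets for 67.7% of olfactory and taste receptor probe sets and 12.4% of ribosomal ones. Among the members this held for 62.5% of ligand probe sets and 65.5% of those of antagonists and R-spondins. It held for 22.2% of frizzled and 18.8% of cytoplasmic probe sets, and for 40.4% over all genes. On 17 of the 63 members, RSPO3, DKK4 and WNT10B among them, every probe set recurred. None of the probe sets of ZNRF3, TCF7L1, SP5, FZD5 and WNT11 recurred. Recurrence is counted on the size of the difference itself. The largest member difference that recurred was 0.66, on a WNT5B probe set, so its absence is not evidence for these 5 genes. Without recurring probe sets, an alternative added after the data were seen, 46 members remained, with 3 (6.52%) at least 1.5-fold higher and 2 (4.35%) lower, against 4.68% and 4.25% of all genes.

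**Figure D4:**
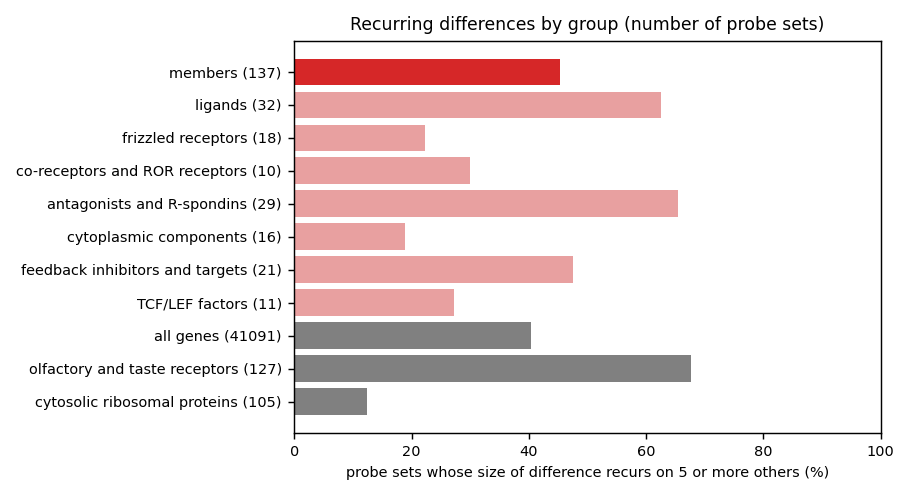
Share of probe sets (horizontal axis, percent) whose size of difference recurs on 5 or more other probe sets, for the members, each role, all genes, and receptor and ribosomal comparison groups, with the number of probe sets in parentheses. Ligands and antagonists lie near the olfactory and taste receptors, frizzled and cytoplasmic genes near the ribosomal proteins.

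Other genes of the pathway were followed in 5 lists of 80 measured genes, of which 6 were at least 1.5-fold higher and 1 lower, 8.75% in all against 5.01% of all genes, and none passed 2-fold. Among genes of ligand secretion and the cell surface (14 measured, median 0.03), LGR5, an R-spondin receptor and also a beta-catenin target, was 1.98-fold higher at 0.99 ± 0.19 (SD, 2 probe sets). TSPAN12, a tetraspanin that assists FZD4, lay at 0.64 ± 0.15 (SD, 3 probe sets), and NDP, the gene of the FZD4 ligand norrin, at 0.64 on 1 probe set. NDP and CTNNB1 below were named after their values were seen. The low end was SOSTDC1, a secreted antagonist, at -0.37, and KREMEN1, a DKK receptor, at -0.37 ± 0.26 (SD, 5 probe sets, all below 0).

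Planar polarity genes, which order cells within a sheet (12 measured, median 0.03), held 2 genes past 1.5-fold, both higher. PRICKLE2 lay at 0.85 on 1 probe set, and DAAM1, a formin downstream of dishevelled, at 0.75 ± 0.22 (SD, 5 probe sets, all above 0). VANGL2 and VANGL1, membrane proteins of the same system, lay lowest at -0.22 and -0.15 ± 0.14 (SD, 4 probe sets). In the destruction complex and cytoplasm list (22 measured, 11 on each side of 0), FRAT1, an inhibitor of GSK3, was 1.92-fold lower at -0.94 on 1 probe set, followed by CTNNBIP1, which blocks beta-catenin from TCF, at -0.48. DACT1 and DACT2, which bind dishevelled, were the highest at 0.58 and 0.53, below 1.5-fold. CTNNB1, the gene of beta-catenin, lay at 0.14 ± 0.06 (SD, 3 probe sets, all above 0).

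No nuclear cofactor passed 1.5-fold (14 measured, median 0.08). The corepressor genes TLE2 and TLE3 lay lowest, at -0.44 ± 0.11 (SD, 2 probe sets) and -0.39 ± 0.17 (SD, 4 probe sets), all their probe sets below 0, while CTBP1 and CHD8 were the highest at 0.20 each. Of 19 further beta-catenin targets of liver and gut (median -0.02), LGR5 and TNFRSF19, a TNF receptor relative at 0.71 ± 0.52 (SD, 3 probe sets), were past 1.5-fold and both higher. The TNFRSF19 probe sets ranged from 0.41 to 1.31, and 2 of 3 were placed below 4. On LGR5 1 of 2 probe sets was placed there. MYC lay lowest at -0.33, followed by FGF18 at -0.28 ± 0.41 (SD, 6 probe sets). These targets therefore lay on both sides of 0, 9 above and 10 below.

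**Figure D5:**
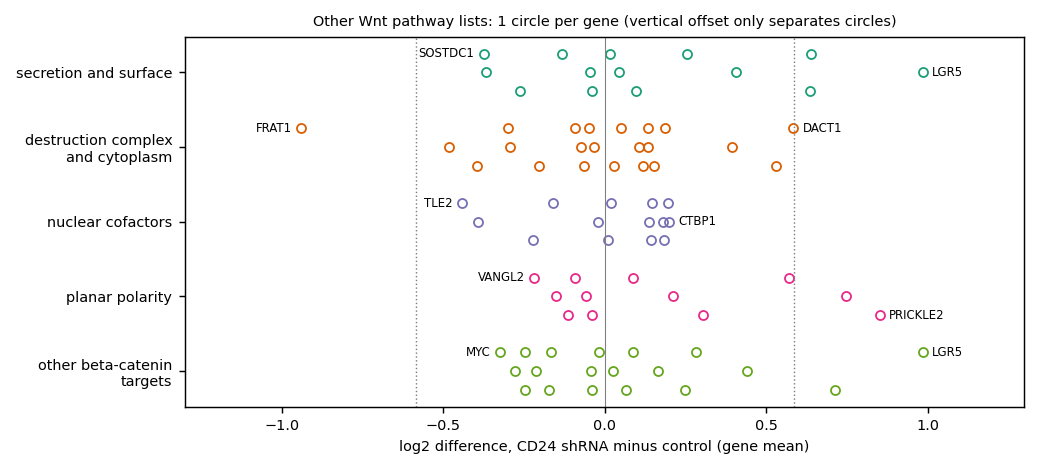
Log2 difference of the gene mean, CD24 shRNA minus control (horizontal axis), for 5 lists of other Wnt pathway genes, 1 circle per gene, with the lowest and highest gene of each list named and dotted lines at 1.5-fold. FRAT1 lies left of the lines, and LGR5, which is in 2 lists, lies farthest right.

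The cell type of the label was checked with marker genes, again without levels. Of 19 probe sets of 7 hepatocyte and hepatoma markers, ALB and AFP among them, 1 was placed below 4, against 13 of 26 for 7 stellate cell and fibroblast markers and 4 of 9 for 4 endothelial markers. Of the stellate cell and fibroblast markers, 6 of 7 lay above 0, DCN and PDGFRB only at 0.04 and 0.02, and the 7 ranged from -0.13 to 2.35. COL3A1 and LUM were at least 2-fold higher, at 2.35 ± 1.77 (SD, 5 probe sets) and 1.12 ± 1.41 (SD, 2 probe sets), on probe sets that differed widely. On COL3A1, 4 of 5 probe sets were placed below 4, and on LUM 2 of 2. Of the hepatocyte and hepatoma markers 5 of 7 lay below 0, with a median of -0.11 and the lowest at -0.45. No endothelial marker passed 1.5-fold, and neither did the 2 leukocyte markers measured, both above 0. The part of other cell types in the differences of the Wnt genes was not tested.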

How the data were processed

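Total RNA of 2 Huh7 cultures was measured on 1 array each. The authors deposited values that were taken as log2, because the submitters' processing notes name RMA (robust multi-array average). The RMA software and version and the log base are not stated. The deposited 2 values of each probe set sum to 0 within 1e-06. The number of arrays limits the precision. Of 54675 probe sets, 41091 named 1 gene symbol in GEO's platform annotation, 1801 several, 11721 none, and 62 were controls. Gene values are means over probe sets (Python 3.11.15, numpy 2.4.6, pandas 2.3.3). With 1 array per group no test was run, and genes were counted past 1.5-fold and 2-fold. Calculations were tested on simulated data. The members and gene lists were chosen with earlier results of these data known. Every member could be named, with values on each array for members past 1.5-fold and for the highest and lowest of each role, and the 2 highest and lowest genes of each other list. Alternatives were the median or the largest probe set per gene, leaving out probe sets ending in _s_at or _x_at, placed below 4 or recurring, centring, scaling on 18 hybridisation control probe sets, and a 3-fold threshold.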

Additional observations from a re-analysis of the deposited data

Results flagged for a closer look

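Of the probe sets outside the comparison, 6 listed a Wnt ligand or frizzled symbol together with a second symbol, and 2 of them passed 1.5-fold. The higher of them had a log2 difference, CD24 shRNA minus control, of 0.87 (0.44 on the CD24 shRNA array and -0.44 on the control array). The other had 0.63 (0.31 on the CD24 shRNA array and -0.31 on the control array) and was placed below 4 on its dimmer array. The remaining 4 lay between -0.11 and 0.28. Which of the listed genes they measure was not tested.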

How the results depend on the processing

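The 5 members past 1.5-fold stayed past it in all 33 values that 7 alternatives could give, but 4 of them have 1 probe set and the centring subtracts 0, so most of these values could not differ and say nothing about stability. TCF7L1, like CD24, has no value without probe sets ending in _s_at or _x_at. This left 1 member (1.92%) at least 1.5-fold lower, against 2.53% of all genes. WNT11 has no value without probe sets placed below 4. This left 1 member (1.82%) at least 2-fold higher, against 0.804% of all genes. With the probe set of largest difference per gene, 5 members (7.94%) were at least 1.5-fold higher and 2 (3.17%) lower, against 5.7% and 5.55% of all genes, and CD24 lay at -1.97; the members' share in both directions together was then no longer above that of all genes. At 3-fold there were 0 members higher and 0 lower. Of all genes 0.162% were that much higher and 0.086% lower, so for 63 genes these counts say little. The median over members was 0.11 with the hybridisation controls at 0, the same shift as for all genes, and 0.072 over the 46 members left without recurring probe sets, an alternative added after the data were seen. With the hybridisation controls at 0, 4 members (6.35%) were higher by 1.5-fold or more, and 3 of them (4.76%) by 2-fold. Of all genes, 4.1% were then at least 1.5-fold higher, 1.53% at least 1.5-fold lower and 0.915% at least 2-fold higher. The 14 members named with values on each array moved, in all 88 values, by less than the larger of their own SD over probe sets and the pooled SD of 0.27. That limit is wide, most of these members have 1 probe set, and the scaling moves every value by only 0.11, so this says little about stability. Within it, DVL1 went from -0.06 to 0.05 and LEF1 from -0.08 to 0.03 under that scaling. LRP5 went from -0.17 to -0.46 without probe sets placed below 4. Leaving out a replicate was impossible with 1 array per group, and no paired analysis was possible because the labels carry no replicate numbers. Signal over background is unknown, so small differences cannot be read as equal levels.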

Other observations

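Promoters of the members were rich in G and C. Over the 250 bases before the start, the 43 members with a promoter in the RefSeq table had a median G and C content of 71.6% and a median of 24 CpG dinucleotides, against 58.0% and 11 over 27305 promoters. The SP5 window stood lower, at 45.6% with 6 CpG, while those of FZD5 and TCF7L1 had 76.8% and 72.0%. These values describe the reference sequence and not the cultures.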
